A study of Saccharomyces cerevisiae with 12 samples.

Results

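The genes described here are 10 Saccharomyces cerevisiae genes of folate one-carbon metabolism and glycine cleavage. Their probes were chosen by gene symbol, and each of the 10 symbols matched 1 of the 6388 gene probes on the arrays, of which 5326 carry a gene symbol. They are GCV1 (YDR019C), GCV2 (YMR189W), GCV3 (YAL044C), LPD1 (YFL018C), SHM1 (YBR263W), SHM2 (YLR058C), MTD1 (YKR080W), ADE3 (YGR204W), MIS1 (YBR084W) and MET13 (YGL125W). The rule names symbols only, but the group was put together with results of these arrays known. Every value below is therefore a description of the 10 genes, and no count over them is independent evidence.

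The arrays measured transcript levels in 3 yeast strains that were grown with or without rapamycin. The groups were rapamycin-treated and untreated Mot1-FRB (strain YGP200), rapamycin-treated and untreated NCB2-FRB (strain YGP201), and rapamycin-treated and untreated WT (strain HHY168). Each of these 6 groups holds 2 cultures, which were started from different colonies. Treatment lasted 60 min at 1 µg/ml in synthetic complete medium with glucose, and untreated cultures grew for the same time without the drug. Each culture was hybridised on 1 array, in opposite dye, against a common reference of untreated WT RNA, and the 2 cultures of a group carry opposite dyes: culture a in Cy3 and culture b in Cy5. As background, FRB is a protein tag that binds rapamycin together with FKBP12, and in anchor-away strains the drug carries the tagged protein out of the nucleus on an FKBP12-tagged ribosomal protein. Mot1 is an ATPase that displaces TATA-binding protein from DNA, and NCB2 encodes the beta subunit of NC2, a repressor that also binds TATA-binding protein. The labels give strain names and the tag but no other alleles, each tagged strain is 1 strain, and depletion is of the protein, so the MOT1 and NCB2 transcripts are no check of it.

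Folate carries one-carbon units that cells take mainly from serine and glycine and spend on purines, thymidylate and methionine. Serine hydroxymethyltransferase moves a carbon of serine onto tetrahydrofolate and leaves glycine, and the mitochondrial glycine cleavage complex breaks glycine down to yield another. Dehydrogenases and a reductase then set the oxidation state of the carbon, which decides whether it serves purine or methionine synthesis. In yeast the glycine cleavage genes are known to respond to glycine, and several genes of this pathway share the regulator Bas1 with the purine genes.

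All values are log2(culture/reference) ratios, so 0 is the level in the common reference, and a difference of 1 is a 2-fold change. They are levels in the RNA of whole cultures, so that fewer cells with a transcript and less of it per cell cannot be told apart. Changes with rapamycin, their SE and adjusted p come from 1 limma fit over the 12 arrays and all 6388 probes, with Benjamini-Hochberg adjustment over the probes and a threshold of 0.05. With 2 arrays per group, the number of arrays limits the precision, and the p-values measure the spread between cultures and between dye orientations. The array of treated WT culture a was dim: its culture signal was 1.61 times the background, against 8.25 to 21.6 times on the other 11 arrays, and 71.3% of its probes were above the blank spots, against 95.6% to 99.5%. On that array the culture signals of MTD1 and GCV3 were not above the blanks, at 0.881 and 0.769 of the limit. The culture signal of GCV2 there was 1.23 times the limit, and its reference signal was above the blanks on 11 of the 12 arrays. No member was saturated on any array. The related pairs SHM1 and SHM2, and ADE3 and MIS1, were measured by separate probes, whose cross-hybridisation was not tested.

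In rapamycin-treated Mot1-FRB, 5 of the 10 genes rose (GCV1, GCV2, GCV3, SHM2 and MTD1), 1 fell (MIS1) and 4 did not pass the threshold (LPD1, SHM1, ADE3 and MET13). Of all probes, 37.3% passed the threshold in either direction, 22.0% up and 15.3% down. In rapamycin-treated NCB2-FRB, 6 of the 10 genes rose (GCV1, GCV2, GCV3, SHM1, SHM2 and MTD1), 1 fell (MIS1) and 3 did not pass (LPD1, ADE3 and MET13). The share of all probes called there was 41.0%, with 22.8% up and 18.2% down. In WT, limma called 0 of the 10 genes and 0 of the 6388 probes, a share of 0%, and at an unadjusted p under 0.05 there were 120 probes and 0 of the members. The median change of the 10 genes was 0.56 in Mot1-FRB, 0.69 in NCB2-FRB and 0.062 in WT, against medians over all probes of 0.0097, -0.0061 and 0.0043.

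**Figure D1:**
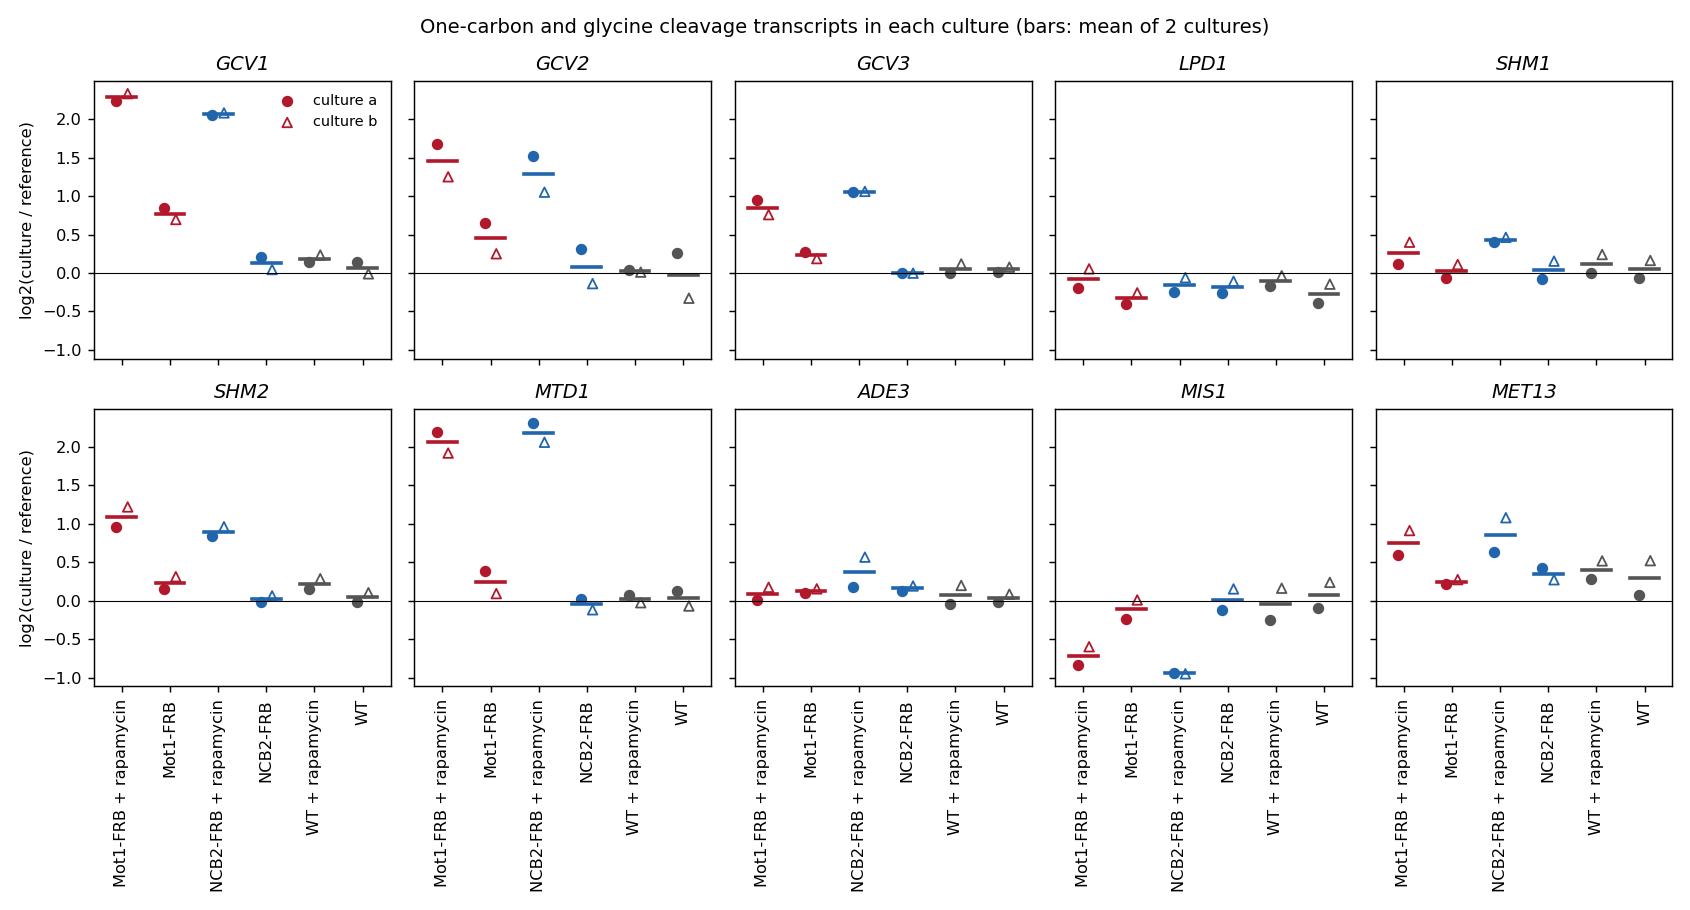
Transcript level of each of the 10 genes in each of the 12 cultures, as log2(culture/reference) on the vertical axis, by group on the horizontal axis. Filled circles are culture a, open triangles culture b, and bars the mean of the 2 cultures. MTD1 and GCV1 lie near 2 in both treated tagged strains, and MIS1 is the only one of the 10 with a negative mean beyond -0.5 there.

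GCV1, GCV2 and GCV3 encode the T, P and H subunits of the glycine cleavage complex, and all of them rose in both tagged strains. GCV1, the aminomethyltransferase, stood at 2.24 and 2.33 in treated Mot1-FRB cultures a and b, against 0.84 and 0.69 in untreated Mot1-FRB. It stood at 2.05 and 2.08 in treated NCB2-FRB, against 0.20 and 0.045 in untreated NCB2-FRB. In WT it was 0.14 and 0.23 with rapamycin and 0.15 and -0.011 without. All 4 treated cultures of the tagged strains lay above every other culture, and untreated Mot1-FRB lay between them and the rest. The change was 1.52 ± 0.086 (SE, adjusted p = 8.25e-06) in Mot1-FRB, a 2.86-fold rise and rank 56 of 6388 probes by log2 change. In NCB2-FRB it was 1.94 ± 0.086 (adjusted p = 3.15e-06), a 3.84-fold rise and rank 15.

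GCV2, the glycine decarboxylase subunit, stood at 1.67 and 1.25 in treated Mot1-FRB, against 0.66 and 0.25 in untreated Mot1-FRB. In NCB2-FRB it was 1.52 and 1.05 with rapamycin and 0.31 and -0.14 without, and in WT 0.034 and 0.011 with rapamycin and 0.27 and -0.33 without. The treated and untreated cultures did not overlap in either tagged strain, although cultures a and b of 1 group lay far apart. Culture a was above culture b in 6 of 6 groups, by 0.39 on average, which is larger than the median absolute difference between the letters over all probes, 0.098. The change was 1.01 ± 0.25 (adjusted p = 0.0127, 2.01-fold) in Mot1-FRB and 1.20 ± 0.25 (adjusted p = 0.00476, 2.3-fold) in NCB2-FRB. Between cultures of the same letter the spread was small: 1.02 for a and 0.996 for b in Mot1-FRB, and 1.21 for a and 1.19 for b in NCB2-FRB. In the fit without a block, the Mot1-FRB call was lost without untreated culture b (a change of 0.80) or treated culture a (0.79). Such a fit leaves a group with 1 dye orientation, so the difference between the letters enters the change. With the letter as a block, which pairs arrays of the same dye orientation, the adjusted p in Mot1-FRB was 4.59e-05.

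GCV3 encodes the lipoylated carrier subunit. Its level was 0.94 and 0.76 in treated Mot1-FRB, against 0.28 and 0.19 in untreated Mot1-FRB, and 1.05 and 1.06 in treated NCB2-FRB, against -0.0064 and -0.0023 in untreated NCB2-FRB. WT cultures ranged from -0.0028 to 0.12 with rapamycin and stood at 0.018 and 0.076 without. Neither tagged strain had overlapping groups, and the 2 cultures of NCB2-FRB nearly coincided. GCV3 rose by 0.62 ± 0.075 (adjusted p = 0.000294, 1.53-fold) in Mot1-FRB and by 1.06 ± 0.075 (adjusted p = 1.6e-05, 2.08-fold) in NCB2-FRB.

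LPD1 encodes dihydrolipoamide dehydrogenase, the fourth component of the complex, which the pyruvate and 2-oxoglutarate dehydrogenases also use. Its level was -0.20 and 0.054 in treated Mot1-FRB, against -0.40 and -0.26 in untreated Mot1-FRB. In NCB2-FRB it was -0.24 and -0.060 with rapamycin and -0.26 and -0.11 without, and in WT -0.17 and -0.036 with rapamycin and -0.39 and -0.14 without. The groups did not overlap in Mot1-FRB and overlapped in NCB2-FRB and WT. The changes, 0.26 ± 0.12 (adjusted p = 0.128) in Mot1-FRB and 0.034 ± 0.12 (adjusted p = 0.851) in NCB2-FRB, were beside 0.17 ± 0.12 in WT. With the letter as a block, which pairs arrays of the same dye orientation, LPD1 passed the threshold in Mot1-FRB (adjusted p = 0.000984).

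The serine hydroxymethyltransferases are encoded by SHM2, the cytosolic enzyme, and SHM1, the mitochondrial one. SHM2 stood at 0.96 and 1.22 in treated Mot1-FRB, against 0.16 and 0.31 in untreated Mot1-FRB, and at 0.84 and 0.96 in treated NCB2-FRB, against -0.013 and 0.065 in untreated NCB2-FRB. In WT it was 0.15 and 0.29 with rapamycin and -0.014 and 0.11 without. The treated and untreated cultures were apart in all 3 strains, though in WT only by a small step. SHM2 rose by 0.86 ± 0.10 (adjusted p = 0.000282, 1.81-fold) in Mot1-FRB and by 0.87 ± 0.10 (adjusted p = 0.00021, 1.83-fold) in NCB2-FRB.

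SHM1 was 0.12 and 0.40 in treated Mot1-FRB, against -0.060 and 0.11 in untreated Mot1-FRB, and 0.40 and 0.46 in treated NCB2-FRB, against -0.073 and 0.15 in untreated NCB2-FRB. WT cultures were at 0.0027 and 0.24 with rapamycin and at -0.061 and 0.16 without. Neither tagged strain had overlapping groups, but the treated and untreated Mot1-FRB ranges nearly met. The change was 0.23 ± 0.13 in Mot1-FRB, which did not pass (adjusted p = 0.198, with the block 0.00438), and 0.39 ± 0.13 in NCB2-FRB, which did (adjusted p = 0.0401, 1.31-fold). The NCB2-FRB call was lost without untreated culture a (adjusted p = 0.229), treated culture a (0.0806) or treated culture b (0.143). It was also lost with centring on the external control spots (0.119) and with only the second spot of each probe (0.0668).

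MTD1 encodes the cytosolic NAD-dependent methylenetetrahydrofolate dehydrogenase and had the largest rise of the 10 genes in both tagged strains. It stood at 2.20 and 1.92 in treated Mot1-FRB, against 0.39 and 0.094 in untreated Mot1-FRB, and at 2.31 and 2.06 in treated NCB2-FRB, against 0.024 and -0.12 in untreated NCB2-FRB. In WT it was 0.075 and -0.025 with rapamycin and 0.13 and -0.067 without. The 4 treated cultures of the tagged strains lay far above the 8 others, of which untreated Mot1-FRB culture a was the highest. MTD1 rose by 1.82 ± 0.14 (adjusted p = 2.6e-05, 3.52-fold, rank 19 of 6388) in Mot1-FRB and by 2.23 ± 0.14 (adjusted p = 9.83e-06, 4.69-fold, rank 7) in NCB2-FRB.

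MIS1, the mitochondrial tetrahydrofolate synthase with dehydrogenase, cyclohydrolase and synthetase activities, was the member that fell. It stood at -0.84 and -0.60 in treated Mot1-FRB, against -0.23 and 0.012 in untreated Mot1-FRB, and at -0.93 and -0.95 in treated NCB2-FRB, against -0.12 and 0.15 in untreated NCB2-FRB. WT cultures were at -0.26 and 0.16 with rapamycin and at -0.096 and 0.24 without. All 4 treated cultures of the tagged strains were below the other 8. The change was -0.61 ± 0.17 (adjusted p = 0.0206, 1.52-fold lower) in Mot1-FRB, and in NCB2-FRB it was -0.96 ± 0.17 (adjusted p = 0.00194, 1.94-fold lower), where it ranked 13 from the lowest of 6388 probes. The Mot1-FRB call was lost without untreated culture b (adjusted p = 0.125) or treated culture a (0.112).

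ADE3 encodes the cytosolic enzyme with the same set of activities as MIS1. Its level was 0.013 and 0.18 in treated Mot1-FRB, against 0.11 and 0.16 in untreated Mot1-FRB. In NCB2-FRB it was 0.18 and 0.57 with rapamycin and 0.13 and 0.19 without, and in WT -0.037 and 0.20 with rapamycin and -0.012 and 0.086 without. Its groups overlapped in every strain, and treated NCB2-FRB culture b was the highest of the 12. The changes of -0.037 ± 0.13 (adjusted p = 0.854) in Mot1-FRB and 0.21 ± 0.13 (adjusted p = 0.225, with the block 0.0374) in NCB2-FRB did not pass. Without treated NCB2-FRB culture a the NCB2-FRB change was 0.41 (adjusted p = 0.0229), and without treated NCB2-FRB culture b it was 0.015 (adjusted p = 0.946).

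MET13 encodes the main methylenetetrahydrofolate reductase, which commits the carbon to methionine. Its level was 0.59 and 0.91 in treated Mot1-FRB, against 0.23 and 0.28 in untreated Mot1-FRB, and 0.64 and 1.08 in treated NCB2-FRB, against 0.43 and 0.27 in untreated NCB2-FRB. In WT it was 0.28 and 0.52 with rapamycin and 0.078 and 0.52 without. The groups did not overlap in either tagged strain and overlapped in WT. The changes were 0.50 ± 0.19 (adjusted p = 0.0616) in Mot1-FRB and 0.51 ± 0.19 (adjusted p = 0.0546) in NCB2-FRB, and neither passed. Both passed with print-tip loess (adjusted p = 0.0386 and 0.0137). With the block the adjusted p was 0.00796 and 0.00704, and in NCB2-FRB the change was 0.73 (adjusted p = 0.0203) without treated culture a and 0.29 (adjusted p = 0.316) without treated culture b. Without either treated NCB2-FRB culture or either untreated WT culture MET13 passed in Mot1-FRB (adjusted p = 0.0387 and 0.0425), and without either untreated WT culture it passed in NCB2-FRB (0.037), with the changes themselves as before.

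With the letter as a block, 9 of 10 genes passed in Mot1-FRB and 9 of 10 in NCB2-FRB, where 62.4% and 62.6% of all probes did. With log2 ratios of the authors' deposited table in the same model, without the block, 9 genes passed in Mot1-FRB and 8 in NCB2-FRB, where 56.7% and 57.8% of all probes did. The genes added were LPD1 (adjusted p = 0.00352), SHM1 (0.0112) and MET13 (0.00409) in Mot1-FRB, and MET13 (0.003) in NCB2-FRB. Median centring of the arrays in place of loess ended the Mot1-FRB calls of GCV3 (adjusted p = 0.115), SHM2 (0.192) and MIS1 (0.507), with changes of 0.61, 0.89 and -0.58. It also ended the NCB2-FRB calls of SHM1 (0.533), SHM2 (0.114) and MIS1 (0.294), with changes of 0.39, 1.03 and -0.80. It called 7.94% of all probes in Mot1-FRB and 10.9% in NCB2-FRB. Treated and untreated cultures did not overlap for 9 of the 10 genes in Mot1-FRB, 8 in NCB2-FRB and 1 in WT (SHM2), against 67.3%, 66.7% and 24.0% of all probes.

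**Figure D2:**
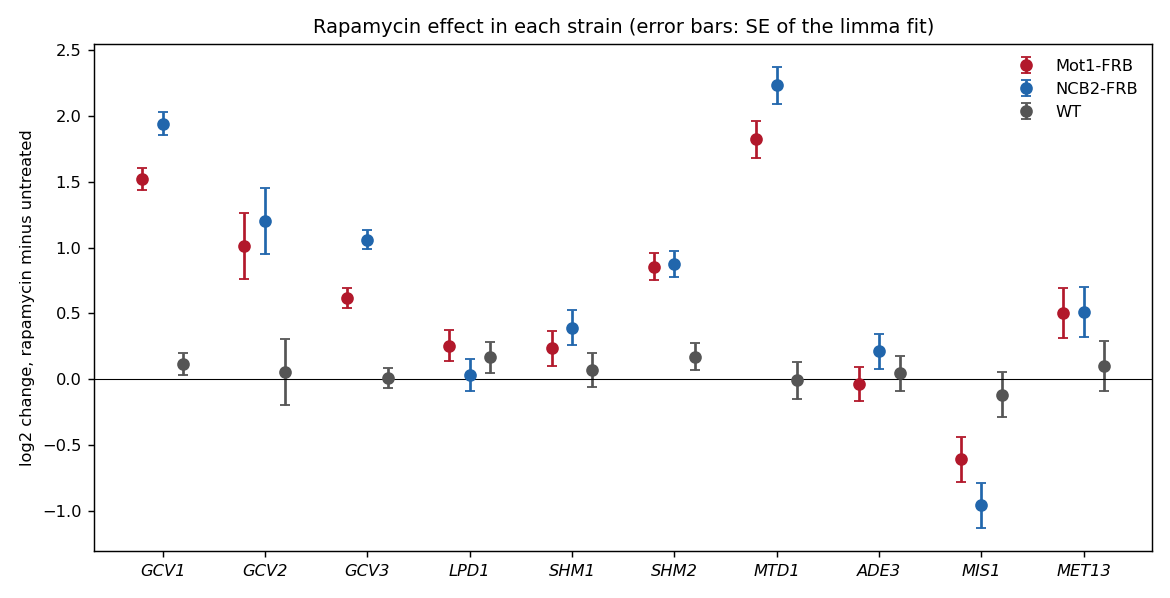
Change with rapamycin (treated minus untreated, log2) of each gene, on the vertical axis, in Mot1-FRB, NCB2-FRB and WT, with the SE of the limma fit as error bars. The WT points lie between -0.12 and 0.17, while MTD1 reaches 1.82 in Mot1-FRB and 2.23 in NCB2-FRB.

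Whether the response to rapamycin differed from that of WT was tested as the difference between the changes. For Mot1-FRB, 4 of 10 genes had a larger rise than in WT (12.7% of all probes were called in that direction, 6.70% in the other and 19.4% in either). These were MTD1 (1.82 ± 0.19, adjusted p = 0.000548), GCV1 (1.40 ± 0.12, adjusted p = 0.000255), GCV3 (0.61 ± 0.11, adjusted p = 0.00497) and SHM2 (0.68 ± 0.15, adjusted p = 0.012). GCV2 (0.95 ± 0.36, adjusted p = 0.0979) and MIS1 (-0.49 ± 0.24, adjusted p = 0.2) did not pass. With the block they did (adjusted p = 0.00105 and 0.00921), which made 6 of 10 genes and 44.7% of all probes. Both also passed with the authors' table (adjusted p = 0.000523 and 0.0457), where 38.9% of all probes did. GCV2 passed with print-tip loess as well (adjusted p = 0.00544). Without the dim WT array the same 4 genes were called, and 13.5% of all probes, with SHM2 at an adjusted p of 0.0476. Centring on the external control spots ended the SHM2 call (adjusted p = 0.111), and median centring in place of loess ended those of GCV1 (0.083), GCV3 (0.662) and SHM2 (0.52).

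For NCB2-FRB, 6 of 10 genes differed from WT (5 up and 1 down), and 23.5% of all probes (14.5% up and 8.95% down). MTD1 (2.24 ± 0.19, adjusted p = 0.000237), GCV1 (1.82 ± 0.12, adjusted p = 0.00012), GCV3 (1.05 ± 0.11, adjusted p = 0.000357), SHM2 (0.70 ± 0.15, adjusted p = 0.0088) and GCV2 (1.15 ± 0.36, adjusted p = 0.0466) rose further than in WT, and MIS1 fell further (-0.84 ± 0.24, adjusted p = 0.034). SHM1 did not pass (0.32 ± 0.19, adjusted p = 0.26, with the block 0.00702). Without the dim WT array 5 genes were called, and 16.4% of all probes. GCV2 was then at 1.16 ± 0.43 (adjusted p = 0.108) and MIS1 at -1.05 ± 0.23 (adjusted p = 0.0209).

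In the fit without the block, the calls of GCV2 and MIS1 against WT in NCB2-FRB were lost on leaving out single arrays and under several settings of the processing. With the block and all arrays both passed (adjusted p = 0.000304 and 0.000472). GCV2 was lost on leaving out either untreated Mot1-FRB culture (adjusted p = 0.0522), untreated NCB2-FRB culture b (0.149), treated NCB2-FRB culture a (0.121), untreated WT culture a (0.137) or treated WT culture b (0.109). MIS1 was lost without untreated NCB2-FRB culture b (adjusted p = 0.115), treated NCB2-FRB culture a (0.0637) or b (0.078), untreated WT culture a (0.106) or treated WT culture b (0.106). With only the second spot of each probe both calls were lost (adjusted p = 0.0538 for GCV2 and 0.0671 for MIS1), and with no background correction that of GCV2 (0.0686). Centring on the external control spots ended the calls of MIS1 (adjusted p = 0.0531) and SHM2 (0.0755), and median centring those of GCV2 (0.0688), GCV3 (0.221), SHM2 (0.357) and MIS1 (0.91).

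The changes in Mot1-FRB and NCB2-FRB were set against each other as well. Of the 10 genes, 0 differed by limma, beside 2 at an unadjusted p under 0.05, and 0.501% of all probes were called (32 probes, 892 at an unadjusted p under 0.05). The Mot1-FRB change was below the NCB2-FRB change by 0.42 ± 0.19 for MTD1 (adjusted p = 0.383), by 0.42 ± 0.12 for GCV1 (adjusted p = 0.16) and by 0.44 ± 0.11 for GCV3 (adjusted p = 0.112). With the block these 3 differences passed (adjusted p = 0.0101, 0.0294 and 0.0162), as did that of LPD1 (0.22 ± 0.17, adjusted p = 0.679, with the block 0.0455), so 4 of 10 genes were called, and 16.4% of all probes. The untreated means of GCV1 were 0.77 in Mot1-FRB and 0.12 in NCB2-FRB, and the treated means 2.29 and 2.06. Its smaller change in Mot1-FRB thus went with a higher untreated level, not a lower treated one. For MTD1 the untreated means were 0.24 and -0.046 and the treated means 2.06 and 2.18. For GCV3 they were 0.23 and -0.0044 untreated, and 0.85 and 1.05 treated. For SHM2 (-0.020 ± 0.15) and MET13 (-0.0074 ± 0.26) the strains' changes were close beside their error.

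Untreated strains were compared to see where the members stood before the drug. GCV1 was higher in untreated Mot1-FRB, at 0.84 and 0.69, than in untreated WT, at 0.15 and -0.011. That difference was 0.70 ± 0.086 (adjusted p = 0.0095), and GCV1 was the 1 of 10 genes called, where 0.971% of all probes were. It was lost without untreated Mot1-FRB culture a (adjusted p = 0.111), untreated WT culture a (0.0501) or untreated WT culture b (0.0997), and with median centring (1). GCV2 differed by 0.48 ± 0.25 (adjusted p = 0.611, with the block 0.0308), and with the block 2 of 10 genes and 7.01% of all probes were called. In untreated NCB2-FRB against untreated WT limma called 0 of the 10 genes, 0 at an unadjusted p under 0.05, and the differences ran from -0.077 (MTD1) to 0.12 (ADE3), where 0.0157% of all probes were called (127 at an unadjusted p under 0.05).

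**Figure D3:**
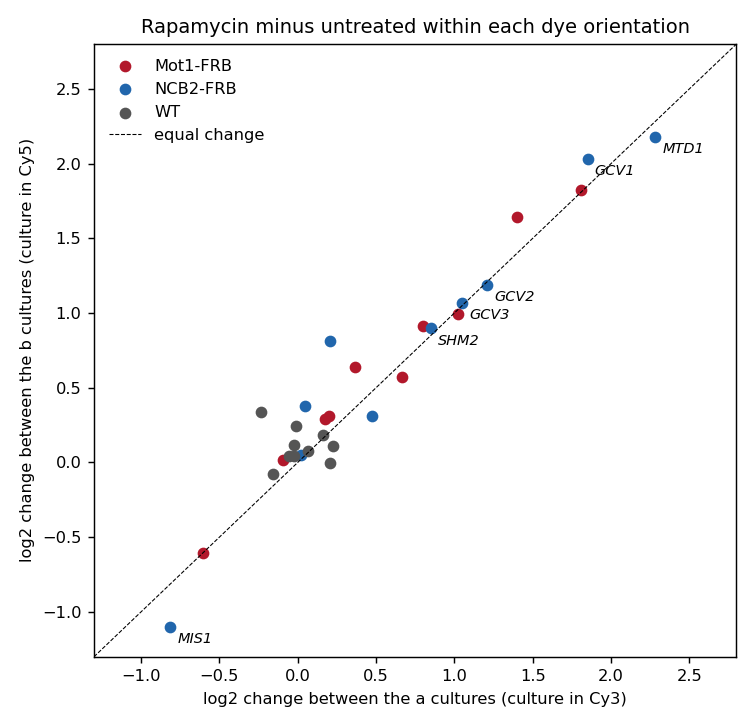
Change with rapamycin (log2, treated minus untreated) between the a cultures on the horizontal axis and between the b cultures on the vertical axis, 1 point per gene and strain, with a dashed line where both are equal and gene names beside NCB2-FRB points. GCV2 in NCB2-FRB lies at 1.21 and 1.19 and MIS1 in NCB2-FRB at -0.81 and -1.10, so both dye orientations show the same direction.

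Each dye orientation gave the rise or fall of the called genes on its own. In Mot1-FRB the a and b cultures changed by 1.81 and 1.82 for MTD1, by 1.40 and 1.64 for GCV1, and by -0.61 and -0.61 for MIS1. In NCB2-FRB they changed by 2.28 and 2.18 for MTD1, by 1.85 and 2.03 for GCV1, and by -0.81 and -1.10 for MIS1. In the tagged strains the letters were furthest apart for MET13 in NCB2-FRB, at 0.21 for a and 0.81 for b, and for ADE3 in NCB2-FRB, at 0.047 and 0.38. MTD1, like GCV2, read higher in culture a in 6 of 6 groups (0.21 on average), whereas LPD1, SHM1, SHM2 and ADE3 read higher in culture b in every group.

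Other genes that make, use or feed the folate pool were described from lists by function, 41 genes in all. The lists were put together with earlier results of these arrays known, so no count over them is independent evidence. In Mot1-FRB 13 of the 41 rose and 6 fell, and in NCB2-FRB 15 rose and 10 fell, while 0 of 41 were called in WT. Of all probes, 22.0% rose and 15.3% fell in Mot1-FRB, and 22.8% rose and 18.2% fell in NCB2-FRB. Against WT the change differed for 10 of the 41 in Mot1-FRB (6 up, 4 down) and for 16 in NCB2-FRB (9 up, 7 down), where 19.4% and 23.5% of all probes differed. Their median change was 0.094 in Mot1-FRB, 0.085 in NCB2-FRB and 0.0095 in WT. The genes named next, with ADE16 left out, had 31 calls in the tagged strains. Of these, 16 were lost with median centring, 7 with centring on the external control spots and at most 4 under each other setting of the processing.

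Of the purine synthesis genes, whose pathway draws on formyl-folate, 5 of 6 rose in Mot1-FRB (median change 0.51) and 6 of 6 in NCB2-FRB (median change 0.72), where 22.0% and 22.8% of all probes rose. The rise was larger than in WT for 2 of the 6 in Mot1-FRB and for 4 of the 6 in NCB2-FRB, where 12.7% and 14.5% of all probes rose further than in WT. ADE1 was 1 of the 2 that did not pass that test in NCB2-FRB (adjusted p = 0.0758). The purine genes ADE8, ADE16 and ADE17 are in the list of folate use below, and ADE5,7 was not analysed. ADE8 did not pass the threshold for the change with rapamycin in Mot1-FRB (adjusted p = 0.365). ADE16 rose in Mot1-FRB (0.39 ± 0.11, adjusted p = 0.0235, against WT 0.112) and did not pass in NCB2-FRB (0.17 ± 0.11, adjusted p = 0.265). ADE12, adenylosuccinate synthase, rose by 0.78 ± 0.15 (adjusted p = 0.00348) in Mot1-FRB and by 1.03 ± 0.15 (adjusted p = 0.000696) in NCB2-FRB. ADE4, which catalyses the first committed step, rose by 0.54 ± 0.080 and 0.83 ± 0.080 in Mot1-FRB and NCB2-FRB (adjusted p = 0.000864 and 6.74e-05). ADE1 changed by 1.50 ± 0.39 in NCB2-FRB (adjusted p = 0.0131) and by 0.49 ± 0.39 in Mot1-FRB (adjusted p = 0.364), where treated culture a stood at -0.052 and treated culture b at 1.56. Without untreated NCB2-FRB culture a or treated NCB2-FRB culture b the NCB2-FRB call was lost (adjusted p up to 0.0664).

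Among 8 genes of folate synthesis and polyglutamylation, 1 rose and 3 fell in Mot1-FRB, and 2 rose and 2 fell in NCB2-FRB. With the block 4 rose and 3 fell in Mot1-FRB, where 62.4% of all probes were called in either direction. ABZ1, aminodeoxychorismate synthase at the start of the route to para-aminobenzoate, rose by 1.12 ± 0.10 in Mot1-FRB and 1.07 ± 0.10 in NCB2-FRB (adjusted p = 7.66e-05 and 6.74e-05). DFR1, dihydrofolate reductase, fell by 0.90 ± 0.12 in both (adjusted p = 0.000604 and 0.000504). RMA1, a folylpolyglutamate synthetase homologue, fell by 0.29 ± 0.052 and 0.30 ± 0.052 (adjusted p = 0.00224 and 0.00176).

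Among 8 genes that use folate, 3 rose in Mot1-FRB, and 2 rose and 1 fell in NCB2-FRB. ADE17, which adds the last carbon of the purine ring, rose by 1.46 ± 0.15 and 1.44 ± 0.15 (adjusted p = 0.000108 and 9.15e-05). ADE8, the glycinamide ribotide transformylase, rose in NCB2-FRB by 0.80 ± 0.076 (adjusted p = 6.27e-05), with 0.75 and 0.72 in treated against -0.12 and -0.013 in untreated cultures. In Mot1-FRB it changed by 0.094 ± 0.076 (adjusted p = 0.365), and the difference between the strains' changes was -0.70 ± 0.11 (adjusted p = 0.046). That call was lost on leaving out any 1 of the 12 arrays (adjusted p from 0.0869 to 0.172), and held under 6 of 10 other alternatives (from 0.00138 to 1). MET6, the methionine synthase that takes the methyl group MET13 makes, rose by 0.53 ± 0.079 (adjusted p = 0.000856) in Mot1-FRB and changed by 0.028 ± 0.079 (adjusted p = 0.808) in NCB2-FRB. Its strain difference did not pass (0.50 ± 0.11, adjusted p = 0.0946, with the block 0.00836).

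LPD1's other partners did not move as 1 group. Of 6 pyruvate and 2-oxoglutarate dehydrogenase genes, 2 rose and 1 fell in Mot1-FRB, and 1 rose and 4 fell in NCB2-FRB. PDB1, a pyruvate dehydrogenase subunit, fell by 0.61 ± 0.097 and 0.84 ± 0.097 (adjusted p = 0.00128 and 0.000189). KGD2, a 2-oxoglutarate dehydrogenase subunit, rose by 0.77 ± 0.16 and 0.51 ± 0.16 (adjusted p = 0.00536 and 0.0323). Against WT the changes of PDB1 passed in Mot1-FRB and NCB2-FRB (adjusted p = 0.0238 and 0.00432). Those of KGD2 did not (0.0542 and 0.18, with the block 0.000529 and 0.00481). KGD1, the partner subunit of KGD2, rose in Mot1-FRB by 0.42 ± 0.076 (adjusted p = 0.00257) and changed by 0.16 ± 0.076 in NCB2-FRB (adjusted p = 0.123). Its Mot1-FRB change did not pass against WT (adjusted p = 0.0885, with the block 0.0334). KGD2 in NCB2-FRB was lost on leaving out untreated NCB2-FRB culture a or b or treated NCB2-FRB culture b (adjusted p up to 0.169).

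Of the 3 genes that make or attach lipoic acid, the cofactor of GCV3, 1 fell in Mot1-FRB, and 1 rose and 2 fell in NCB2-FRB. All of these changes were small. AIM22 rose by 0.26 ± 0.054 (adjusted p = 0.00423) and LIP2 fell by 0.22 ± 0.062 (adjusted p = 0.0194) in NCB2-FRB. LIP5 fell by 0.19 ± 0.062 and 0.18 ± 0.062 in Mot1-FRB and NCB2-FRB (adjusted p = 0.0376 and 0.0446). Against WT the LIP5 changes did not pass (adjusted p = 0.331 and 0.364), while those of AIM22 and LIP2 in NCB2-FRB did (0.00733 and 0.0452). The LIP5 calls were lost on leaving out 7 and 8 of the 12 arrays in turn (adjusted p up to 0.209), and that of LIP2 on leaving out 3 (up to 0.103).

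Among 7 genes of serine and glycine supply or use, 1 rose in Mot1-FRB and 2 in NCB2-FRB. With the block these were 3 in Mot1-FRB, and 3 that rose and 1 that fell in NCB2-FRB. The block called 62.4% and 62.6% of all probes there, in either direction. SER1, the phosphoserine aminotransferase, rose by 0.67 ± 0.073 and 0.63 ± 0.073 (adjusted p = 0.000172 and 0.000193). CHA1, the serine and threonine deaminase, rose in NCB2-FRB by 0.68 ± 0.20 (adjusted p = 0.0229) and changed by 0.41 ± 0.20 in Mot1-FRB (adjusted p = 0.14). Against WT its NCB2-FRB change did not pass (adjusted p = 0.14, with the block 0.0435), while the SER1 changes passed in Mot1-FRB and NCB2-FRB (0.00538 and 0.00621). The CHA1 call was lost without untreated NCB2-FRB culture a or b or treated NCB2-FRB culture a (adjusted p up to 0.133). Of the regulators, BAS1 fell by 0.62 ± 0.090 and 0.47 ± 0.090 (adjusted p = 0.000731 and 0.00283). PHO2, the partner of Bas1, rose by 0.25 ± 0.088 and 0.30 ± 0.088 (adjusted p = 0.0493 and 0.0228). Against WT the BAS1 change passed in Mot1-FRB (adjusted p = 0.0179) and not in NCB2-FRB (0.0554, with the block 0.00367). The PHO2 changes passed against WT in neither strain (adjusted p = 0.257 and 0.156). PHO2 was lost on leaving out 9 of the 12 arrays in turn in Mot1-FRB (adjusted p up to 0.27) and 3 of them in NCB2-FRB (up to 0.15).

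**Figure D4:**
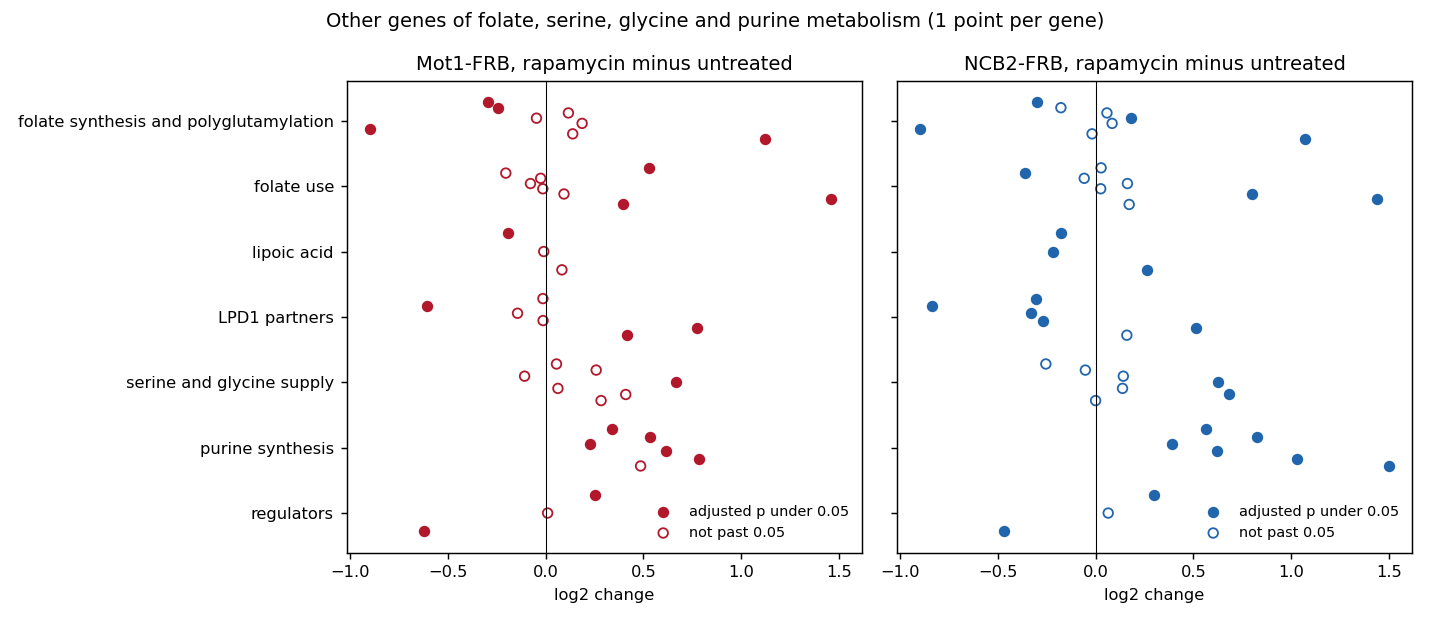
Change with rapamycin (log2, horizontal axis) of the 41 other genes, 1 point per gene, by list on the vertical axis, with Mot1-FRB left and NCB2-FRB right. Filled points have an adjusted p under 0.05 in limma. All 6 genes of the purine synthesis list lie above 0 in both strains, and ADE1 is the open point of that list in Mot1-FRB.

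The genes whose pattern over the 6 group means was most like those of MTD1, GCV1 and GCV2 were not members. Pearson's r over the 6 means was 0.9996 between MTD1 and FMP33, 0.9993 between GCV1 and PHO3, and 0.9995 between GCV2 and YLR225C. Such values were common, since 1200, 1198 and 1187 of 5325 named probes had an r over 0.9 with MTD1, GCV1 and GCV2, and all means share the common reference. The next 4 for MTD1 were BPT1, PBI2, STF1 and SOL4, those for GCV1 were KTR2, EDC2, GRX2 and PRE6, and those for GCV2 were COX5B, PRP8, SIA1 and SHR5. Likeness in shape did not mean likeness in size: PHO3 changed by 0.50 in Mot1-FRB and 0.66 in NCB2-FRB, beside 1.52 and 1.94 for GCV1.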

How the data were processed

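Each of the 12 arrays has 15552 spots. Of these, 12776 stand for 6388 gene probes (2 spots a probe), 1872 are external controls and 904 are blanks or other quality controls. The scanner intensity and local background of every spot were deposited without normalization, per the file headers. The authors' own normalized intensities came from print-tip LOESS with no background subtraction and a dye bias correction, per the labels' protocols. The deposited log2 value table equals log2(culture/reference) of those to within 4.99e-06, with array medians from -0.00904 to 0.0105. The letter r in a label was taken to mean rapamycin, and 0 columns of per-sample values were set aside.

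Here, R 4.3.3 and limma 3.58.1 were used. Signal means were corrected by normexp on background medians (offset 50), then normalized by loess over the gene probes (span 0.3, 4 iterations), given as culture over reference, and averaged over spots. The fit had a mean per group and no block, with 6 residual and 3 prior degrees of freedom, and two-sided moderated tests in 8 comparisons. Only the limma step was tested on simulated data, as ratios with independent noise. Background correction, loess and shared deviations of same-letter arrays were not part of that test. The limit for the blanks is their percentile 95, and a signal over 32768 counts as saturated. Plots used Python 3.11.15, matplotlib 3.10.9, and pandas 2.3.3.

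The letters a and b mark dye orientation. Same-letter arrays deviated together from their group means (correlations across probes of 0.482 to 0.817 over 15 pairs of groups, every one over 0.1), so the letters pair the arrays, at least through the dye. The blocked fit has 5 residual and 4.12 prior degrees of freedom.

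Members and lists were chosen with earlier results of these data known. Named are the 10 members, at most 3 genes of each other list (the largest changes past the threshold in either tagged strain) and the 5 genes most like each of the 3 members with the largest mean change. By symbol or locus tag 5266 of the symbols matched the RefSeq gene table, and 60 by synonym. ADE16 is named as well, as a purine gene outside the purine synthesis list. ADE5,7 was not analysed here. Alternatives were the block, no background correction, print-tip loess, median centring, external control centring, the authors' table, probes above the blanks only, each spot alone, and each array left out. The authors' table with the block was added after seeing the data.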

Additional observations from a re-analysis of the deposited data

Results flagged for a closer look

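By the test of the difference in limma, 6 members were flagged for a change with rapamycin that differed from WT. For a difference between the tagged strains, 1 other gene was flagged, ADE8. Of the 41 other genes, the change also differed from WT for 6 up and 4 down in Mot1-FRB, and 9 up and 7 down in NCB2-FRB. Of all probes, 19.4% and 23.5% differed from WT, and 0.501% differed between the tagged strains. Mot1-FRB minus WT was 1.82 for MTD1, 1.40 for GCV1, 0.607 for GCV3 and 0.683 for SHM2. NCB2-FRB minus WT was 2.24 for MTD1, 1.82 for GCV1, 1.15 for GCV2, 1.05 for GCV3, 0.702 for SHM2 and -0.84 for MIS1. Mot1-FRB minus NCB2-FRB was -0.704 for ADE8. As given above, the call of ADE8 and those of GCV2 and MIS1 in NCB2-FRB minus WT were lost on leaving out single arrays. The WT values include the dim array, on which the culture signals of MTD1 and GCV3 were not above the blanks and that of GCV2 was 1.23 times the limit. Groups of 2 cultures are too small to test any 1 culture as an outlier.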

How the results depend on the processing

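With median centring in place of loess, 3 of 10 members were called in Mot1-FRB and 4 in NCB2-FRB (7.94% and 10.9% of all probes). It called 1 in Mot1-FRB minus WT and 2 in NCB2-FRB minus WT (0.172% and 0.423% of all probes). In untreated Mot1-FRB minus WT it called 0 (0.0313% of all probes), and the ADE3 change in Mot1-FRB was 0.0164. With the filter on probes above the blanks, which leaves 7 members, the counts were 3 in Mot1-FRB, 2 in Mot1-FRB minus WT and 3 in NCB2-FRB minus WT. Of all probes that the filter keeps, 42.6%, 21.9% and 26.7% were called in these comparisons. MTD1, GCV2 and GCV3 are the members it removes. MTD1 and GCV3 were above the blanks on 11 arrays in each channel, and GCV2 on 12 in the culture channel and 11 in the reference channel. With the replicate block, 4 members were called in Mot1-FRB minus NCB2-FRB and 2 in untreated Mot1-FRB minus WT (16.4% and 7.01% of all probes). It changed no call of a member other than those given above. The authors' value table called 2 in each of these comparisons (8.48% and 4.21% of all probes), and with the replicate block 3 in each (12.9% and 5.92%) and 7 in Mot1-FRB minus WT (44.7%). Leaving out 1 array in turn moved the counts of members called in Mot1-FRB, NCB2-FRB, NCB2-FRB minus WT and untreated Mot1-FRB minus WT. The count in Mot1-FRB minus WT did not move. The share of all probes called is given above only for the fit without the dim WT array, so these counts lack a background. A group left with 1 array keeps 1 dye orientation, and its spread is taken from the others. The sign turned for ADE3 in Mot1-FRB (from -0.118 to 0.045 on leaving out 1 array, positive without treated culture a) and for LPD1 in NCB2-FRB (from -0.0591 to 0.126, with -0.0591 without treated culture b and -0.0445 without untreated culture a). The directions of MTD1, GCV1, GCV2, GCV3, SHM2 and MIS1 in both tagged strains held under all these alternatives. Where a count moved, the cause was not tested, other than the members the filter removes. Of all probes, 507 were called in Mot1-FRB and 696 in NCB2-FRB with median centring, against 2380 and 2617, and 3984 and 3999 with the block.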
